A study of Mus musculus with 20 samples.

Results

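The mitochondrial carriers are the Slc25 family of solute transporters, and their mRNA levels were measured in mouse soleus, a hind-limb muscle rich in slow, oxidative fibres. Members were taken by name: every row of the count table whose Ensembl identifier maps to a protein-coding mouse gene called Slc25a followed by a number, except Slc25a11, Slc25a12, Slc25a13 and Slc25a20. This gave 43 genes of 56941 gene rows. All animals were C57BL/6J mice and the entire soleus of 1 hind limb was taken. The space group of 10 mice had 14 days of hind-limb unloading, ionizing radiation and a stress hormone by way of its diet. The 10 control mice had a sham irradiation and were otherwise kept in a similar way. All space mice had the 3 exposures at once, and what each contributed cannot be told apart. The labels used here give neither the radiation dose nor the name of the hormone. Each group is described as 10 mice, and nothing more is said of where the replicates came from, so a p-value reflects only how far these samples vary, which may be technical.

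Mitochondrial carriers are small membrane proteins that are made in the cytosol, for the most part imported without being cut, and inserted mainly in the inner mitochondrial membrane. Each carries a kind of solute across it, such as adenine nucleotides, phosphate, citrate, amino acids, iron or cofactors, usually in exchange for another. In oxidative muscle the most abundant are the adenine nucleotide translocator, which exports ATP for ADP, and the phosphate carrier, which brings in the phosphate that ATP synthase uses. The members were ordered by what they carry.

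Total counts were 24062159 to 39620873 in space libraries and 17336017 to 43424464 in control libraries. The count filter left 16778 genes to test. Slow fibre markers were abundant in all 20 libraries, although this alone cannot tell soleus from another muscle with slow fibres. Their summed level was 5144 to 13376 CPM (counts scaled to a common library size) in space libraries, against 18489 to 24997 CPM in control libraries. Fast fibre markers summed to 51948 to 68034 CPM in space libraries, against 13451 to 20519 CPM in control libraries. Space replicates 1 to 4 stood apart: their Schwann cell and nerve markers summed to 519 to 1505 CPM, against 95.2 to 184 CPM in space replicates 5 to 10 and 95.9 to 194 CPM in control libraries. Results that rest on those 4 libraries are given with and without them. Of 7 adipocyte markers, Car3, which skeletal muscle also makes in quantity, fell to 1177 ± 213 CPM in space, against 2405 ± 327 CPM in control, Retn rose, and the other 5 lay at log2 fold changes of 0.66 to 1.11 and did not pass. The list median was 0.81, while the sum over the list, most of it Car3, was 911 to 1662 CPM in space libraries and 1992 to 3017 CPM in control libraries. No marker list was at 0 in any library. In whole muscle, fewer cells of a type and less RNA per cell cannot be told apart, and the part of fibre type, nerve or fat in the changes below was not tested.

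More carrier mRNAs fell than rose in space soleus. Of the 43 members, 37 passed the count filter, 18 fell, 5 rose and 14 did not pass the test (edgeR quasi-likelihood, 2-sided, adjusted p under 0.05 by Benjamini-Hochberg over 16778 genes). The translocator Slc25a4, the phosphate carrier Slc25a3, the calcium-regulated carrier Slc25a23 and the unassigned carrier Slc25a34 were among those that fell. The iron carrier Slc25a28, the uncoupling-protein-like Slc25a27, the calcium-regulated Slc25a25, Slc25a16 and Slc25a53 rose. The share of tested members that changed was 62.2%, close to the 57.6% of all tested genes that did. By direction, 48.6% of tested members fell, against 28.9% of all tested genes, and 13.5% rose, against 28.7% of all tested genes. The median log2 fold change of the tested members was -0.22, and that of all tested genes was 0.02. Under upper-quartile scaling 8 members rose and 16 fell, and with library size alone 8 rose and 15 fell. Members that rose then made up 33.3% and 34.8% of those called, against 21.7% with the scaling used here, and the median of all tested genes moved to 0.08 and 0.10.

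Single libraries were looked at next. For 17 of the 18 members that fell, all 10 space libraries lay below the control mean, and for Slc25a47, a carrier best known from liver, 9 of 10 did. The 18 were called from these same libraries, so this describes the calls and adds no support to them. The space and control ranges did not overlap for 10 of the 37 tested members, 27.0%, against 17.4% of all tested genes. Of these, 9 were lower in space (Slc25a3, Slc25a4, Slc25a5, Slc25a15, Slc25a23, Slc25a26, Slc25a39, Slc25a46 and Slc25a51) and Slc25a28 was higher. Without space replicates 1 to 4, 5 members rose and 17 fell, against 25.2% of all genes tested that rose and 26.1% that fell. Falls among the called members ran from 1.13-fold to 2.86-fold.

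**Figure D1:**
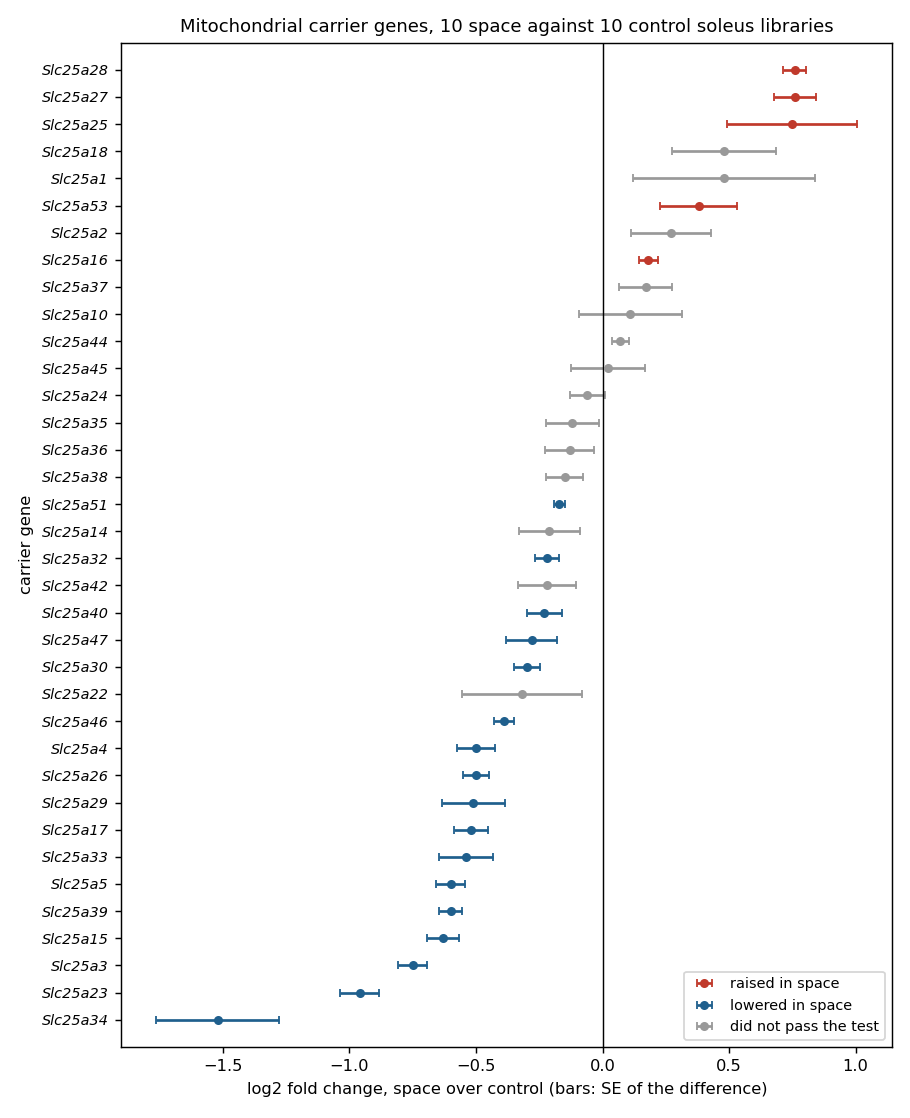
log2 fold change (x axis, space over control) of 36 of the 37 tested carrier genes (rows), with bars for the SE of the difference, coloured by whether the gene was raised, lowered or did not pass the test. Slc25a34 lies lowest at -1.52, and Slc25a28, Slc25a27 and Slc25a25 lie highest at 0.75 to 0.76.

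By class, the nucleotide and phosphate carriers held 10 members, of which 8 were tested, 5 fell and 1 rose, with a median log2 fold change of -0.52. Of the 11 carriers of cofactors, iron and glutathione, all were tested, 7 fell and 2 rose, with a median of -0.22. Of the 10 carboxylate and amino acid carriers, 9 were tested, 2 fell and none rose, with a median of 0.07. Of the 3 uncoupling-protein-like carriers, 1 rose and 1 fell. Of 9 members with other or unassigned roles, 6 were tested, 3 fell and 1 rose. Over all tested genes 28.9% fell and 28.7% rose.

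The promoters of Slc25a34, which fell furthest, and of Slc25a28 and Slc25a25, 2 of the 3 members with the largest rises, are shown as the sequence context of large changes. The rise of Slc25a25 rested on single libraries, as given with its values. They were read from RefSeq windows on GRCm38.p6, all on the minus strand and printed 5′ to 3′, at chr4:141623785-141624084 for Slc25a34, chr2:32424017-32424316 for the most downstream of 3 annotated starts of Slc25a25, and chr19:43674832-43675131 for Slc25a28. Capitals mark the bases that match a searched motif.
Slc25a34: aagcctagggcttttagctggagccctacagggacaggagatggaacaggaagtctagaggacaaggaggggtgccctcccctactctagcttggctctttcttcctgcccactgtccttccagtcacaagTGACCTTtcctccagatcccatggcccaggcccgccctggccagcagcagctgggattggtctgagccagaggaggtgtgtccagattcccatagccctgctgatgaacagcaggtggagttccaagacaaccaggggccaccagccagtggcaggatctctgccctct
Slc25a25: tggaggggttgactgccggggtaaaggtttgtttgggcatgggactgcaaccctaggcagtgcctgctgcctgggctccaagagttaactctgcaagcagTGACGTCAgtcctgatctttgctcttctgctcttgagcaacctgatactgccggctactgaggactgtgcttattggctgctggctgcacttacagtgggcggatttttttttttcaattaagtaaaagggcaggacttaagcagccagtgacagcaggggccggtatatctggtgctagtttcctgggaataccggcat
Slc25a28: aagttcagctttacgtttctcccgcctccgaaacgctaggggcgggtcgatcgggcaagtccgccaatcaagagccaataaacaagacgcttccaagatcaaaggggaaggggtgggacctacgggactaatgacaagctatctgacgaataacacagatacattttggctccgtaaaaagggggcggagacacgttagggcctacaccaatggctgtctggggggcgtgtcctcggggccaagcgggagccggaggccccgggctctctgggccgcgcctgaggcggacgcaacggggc

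RefSeq windows were matched by symbol for 32 of the 43 members, giving 42 windows. Each motif was searched on both strands. The estrogen-related receptor motif AAGGTCA was in 1 of the 42 member windows, that of Slc25a34, where it begins at position -119 from the annotated start on the other strand, and in 4.72% of all 32851 windows. The cyclic AMP response element TGACGTCA was in 2 of the 42, those of Slc25a25 (position -150) and of Slc25a36, and in 1.79% of all windows. The muscle factor motif CTAAAAATA of MEF2, in 0.517% of all windows, was in no member window. Forms of the NRF1 motif and of the glucocorticoid response element, in 0.971% and 0.475% of all windows, were in no member window either. No motif was found in the Slc25a28 window or in the other windows of Slc25a25. A match describes these letters alone, and no binding was measured.

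Per length of exon, the family was dominated by Slc25a4, the heart and muscle adenine nucleotide translocator. It reached 618 ± 95.4 RPKM (CPM per kilobase of exon) in space libraries and 873 ± 22.6 RPKM in control libraries (SD, n = 10 each). This was 73.7% ± 2.34 of the summed RPKM of all members in space libraries and 73.9% ± 0.974 in control libraries. Slc25a3 came next at 78.3 RPKM in space and 132 RPKM in control libraries, and its share was 9.38% ± 0.264 against 11.2% ± 0.408. Slc25a5, the widely expressed translocator, followed at 15.7 RPKM in space and 23.8 RPKM in control libraries. Slc25a51, the NAD carrier, was at 10.3 RPKM in space and 11.6 RPKM in control libraries. Slc25a34 was 8th in space libraries at 8.02 RPKM and 4th in control libraries at 22.9 RPKM, while Slc25a28 was 7th in space libraries at 8.19 RPKM and 16th in control libraries at 4.82 RPKM. Summed over all members, the level was 2498 ± 284 CPM in space libraries and 3510.5 ± 113 CPM in control libraries (SD, n = 10 each), with ranges of 2019.9 to 2909 and 3369.8 to 3739.8 CPM that did not overlap.

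Both adenine nucleotide translocators that were tested fell. Slc25a4 had 1117, 1519 and 1759.6 CPM (lowest, median and highest library) in space and 1978, 2047 and 2170.4 CPM in control. No space library reached the lowest control library, and the log2 fold change was -0.50 (SE 0.0734, edgeR adjusted p = 1.97e-06). Within the space group, replicates 1 to 4 were at 1117 to 1289.9 CPM and replicates 5 to 10 at 1452 to 1759.6 CPM. Without replicates 1 to 4 the log2 fold change was -0.34 (edgeR adjusted p = 8.27e-07). Slc25a5 had 22.1, 25.9 and 29.5 CPM in space and 33.7, 39.2 and 46.1 CPM in control, again with no overlap. Its log2 fold change was -0.60 (SE 0.0585, edgeR adjusted p = 2.77e-09) and -0.59 without space replicates 1 to 4. Of the 75-base windows of the Slc25a5 transcript, 27.9% also occur in pseudogenes such as Slc25a5-ps, so its counts depend on how such reads were assigned. Slc25a31, the translocator known from testis, was under the filter, at 0 to 2 counts per library in both groups.

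Slc25a3, the phosphate carrier, fell further than Slc25a4. It had 342, 446 and 501 CPM in space and 680.1, 745 and 778 CPM in control, and the highest space library lay well under the lowest control library. The log2 fold change was -0.75 (SE 0.0562, edgeR adjusted p = 4.96e-11), and -0.64 without space replicates 1 to 4, which held 342 to 408 CPM against 441 to 501 CPM in space replicates 5 to 10.

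**Figure D2:**
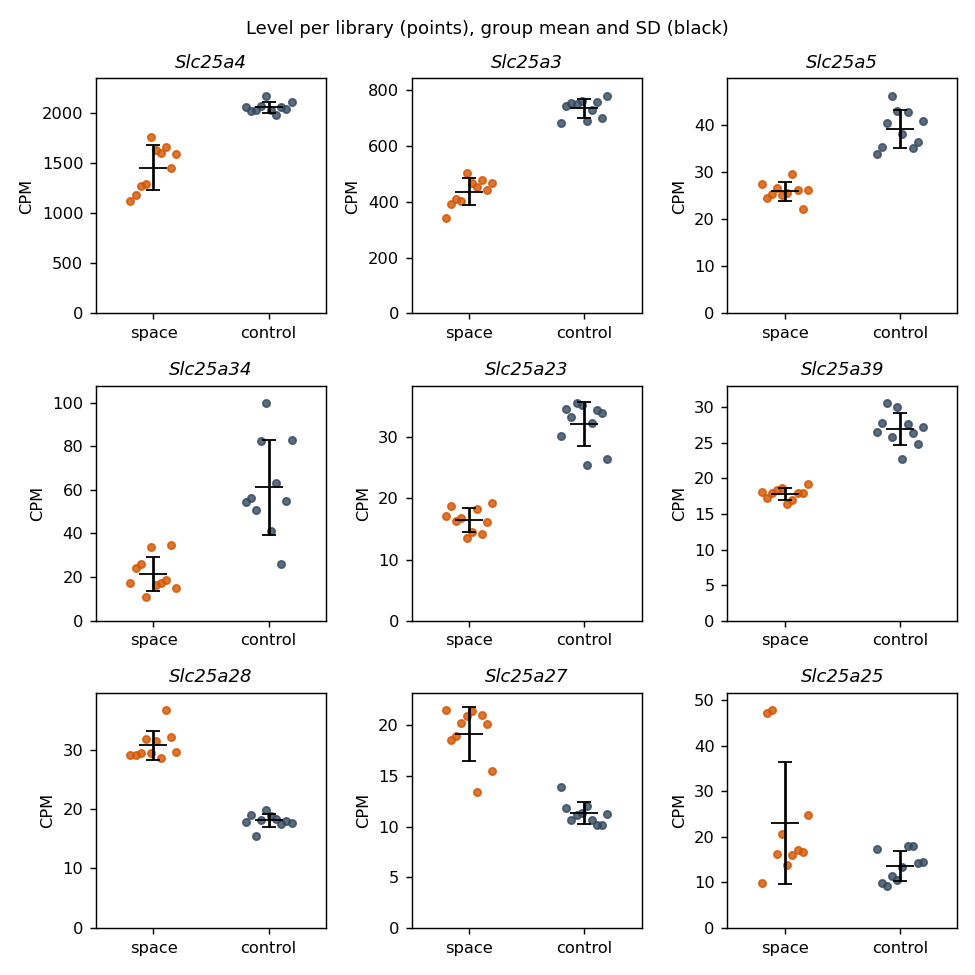
CPM (y axis, from 0) of 9 carrier genes in each space (left) and control (right) library, with points for libraries and black bars for the group mean and SD. Slc25a4, Slc25a3, Slc25a5, Slc25a23 and Slc25a39 separate fully downwards, Slc25a28 separates fully upwards, and 2 space libraries of Slc25a25, at 47.1 and 47.8 CPM, lie far above the rest.

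The calcium-regulated ATP-magnesium/phosphate carriers, which adjust the adenine nucleotide content of the matrix, moved in different directions. Slc25a23 had 13.5, 16.6 and 19.2 CPM in space and 25.5, 33.6 and 35.6 CPM in control. All 10 space libraries lay below every control library, with a log2 fold change of -0.96 (SE 0.0778, edgeR adjusted p = 5.06e-11). Slc25a25 had 9.81, 16.9 and 47.8 CPM in space and 9.27, 13.8 and 18.1 CPM in control. Of its space libraries, 4 of the 10 exceeded the highest control library and the rest lay within the control range, and replicates 2 and 3, at 47.1 and 47.8 CPM, were far above the others. The log2 fold change was 0.75 (SE 0.257, edgeR adjusted p = 0.0217), and the call was lost without space replicate 2 (adjusted p = 0.0507, edgeR) or without space replicate 3 (adjusted p = 0.0512, edgeR). Without space replicates 1 to 4 it was 0.42 (edgeR adjusted p = 0.0438). Naif1 overlaps Slc25a25 on the opposite strand, and the sources used here do not say whether counting used strand, so reads of the pair may not be separated. Slc25a24 had 5.83, 7.52 and 8.08 CPM in space and 6.28, 7.74 and 9.30 CPM in control. At 7.27 ± 0.736 CPM in space and 7.58 ± 0.827 CPM in control, it did not pass the test (log2 fold change -0.06, edgeR adjusted p = 0.493). Slc25a41, a near relative of Slc25a23, was under the filter at 0 to 4 counts in space and 0 to 2 counts in control libraries.

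Of the pyrimidine nucleotide carriers, which supply precursors for mitochondrial DNA and RNA, Slc25a33 fell and Slc25a36 did not pass the test. Slc25a33 had 6.92, 9.27 and 12.0 CPM in space and 9.81, 14.0 and 18.8 CPM in control. The ranges overlapped, but all 10 space libraries were below the control mean, and the log2 fold change was -0.54 (SE 0.108, edgeR adjusted p = 7.82e-05). Slc25a36 had 65.9, 78.7 and 119 CPM in space and 72.6, 90.4 and 108 CPM in control, with a log2 fold change of -0.13 (SE 0.0960, edgeR adjusted p = 0.218). Its highest library was a space library, replicate 8, and without it the log2 fold change was -0.20 (edgeR adjusted p = 0.0243). Gm13068 overlaps Slc25a33 on the opposite strand and shares 11.4% of its 75-base windows.

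Among the iron carriers, Slc25a28 (mitoferrin 2), the form outside the red cell lineage, gave the smallest adjusted p of the family. It had 28.5, 29.5 and 36.6 CPM in space and 15.5, 18.1 and 19.9 CPM in control. Every space library was above every control library, with a log2 fold change of 0.76 (SE 0.0456, 1.70-fold, edgeR adjusted p = 2.23e-12), and it was 0.80 without space replicates 1 to 4. Slc25a37 (mitoferrin 1), best known from red cell precursors, had 9.66, 15.4 and 19.2 CPM in space and 11.6, 13.6 and 15.8 CPM in control. Its space range enclosed the control range, and the log2 fold change of 0.17 did not pass the test (SE 0.105, edgeR adjusted p = 0.142). It passed without space replicate 1, the lowest library (0.23, edgeR adjusted p = 0.0134), and without space replicates 1 to 4 (0.28, edgeR adjusted p = 0.0114). Erythroid markers summed to 12.0 to 53.0 CPM in space and 29.3 to 55.7 CPM in control libraries.

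The glutathione carriers both fell. Slc25a39, which brings glutathione into mitochondria, had 16.4, 18.0 and 19.2 CPM in space and 22.8, 26.9 and 30.6 CPM in control. The groups did not overlap, and the log2 fold change was -0.60 (SE 0.0448, edgeR p = 3.53e-12 before adjustment, past the threshold after it). Its paralog Slc25a40 had 4.37, 5.14 and 5.86 CPM in space and 4.93, 6.18 and 7.25 CPM in control. The ranges overlapped, the log2 fold change was -0.23 (SE 0.0695, edgeR adjusted p = 0.0122), and it did not pass without space replicates 1 to 4 (-0.19, edgeR adjusted p = 0.0819) or under upper-quartile scaling (-0.17, edgeR adjusted p = 0.0633) or with library size alone (-0.15, edgeR adjusted p = 0.117).

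Other cofactor carriers fell as well. Slc25a17, the peroxisomal cofactor carrier, had 10.0, 10.7 and 12.5 CPM in space and 11.9, 15.8 and 18.2 CPM in control (log2 fold change -0.52, SE 0.0682, edgeR adjusted p = 3.66e-07), with overlap only near the lowest control library. Slc25a26, which carries S-adenosylmethionine, averaged 7.88 ± 0.787 CPM in space and 11.1 ± 0.555 CPM in control (-0.50, edgeR adjusted p = 5.24e-08), with no overlap. Slc25a32, the folate and FAD carrier, fell by 0.22 on the log2 scale. Slc25a51, the NAD carrier, moved little but evenly, at 56.8 ± 1.68 CPM in space and 64.0 ± 2.64 CPM in control with no overlap (-0.17, edgeR adjusted p = 3.69e-05). Slc25a51 had 54.9, 56.4 and 59.4 CPM in space and 60.4, 63.8 and 68.5 CPM in control. With library size alone Slc25a51 was at -0.09 and did not pass (edgeR adjusted p = 0.0643).

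The carriers tied to coenzyme A did not move alike. Slc25a16 had 26.5, 28.6 and 32.4 CPM in space and 23.1, 26.2 and 27.9 CPM in control. All 10 space libraries were above the control mean although the ranges overlapped, and the log2 fold change was 0.18 (SE 0.0373, 1.13-fold, edgeR adjusted p = 0.000623). Slc25a42, the coenzyme A carrier, had 27.2, 37.4 and 49.0 CPM in space and 33.2, 42.4 and 57.3 CPM in control, with broad overlap (-0.22, SE 0.114, edgeR adjusted p = 0.0820). It passed without space replicate 5 (-0.27, edgeR adjusted p = 0.032) or without control replicate 8 (-0.26, edgeR adjusted p = 0.037). It also passed with libraries blocked by sample number (-0.23, edgeR adjusted p = 0.0499).

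The 2 carboxylate and amino acid carriers that fell carry basic amino acids. Slc25a15, the ornithine carrier of the urea cycle, had 9.25, 11.1 and 12.5 CPM in space and 14.2, 17.8 and 19.5 CPM in control. Its groups did not overlap, and the log2 fold change was -0.63 (SE 0.0631, edgeR adjusted p = 5.81e-09). Slc25a29 had 2.59, 3.59 and 4.61 CPM in space and 4.07, 4.76 and 7.03 CPM in control, overlapping between 4.07 and 4.61 CPM (-0.51, SE 0.124, edgeR adjusted p = 0.000849).

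None of the other 7 tested members of that class passed. Slc25a22, a glutamate carrier, had 18.6, 41.4 and 63.7 CPM in space and 22.9, 49.0 and 68.3 CPM in control, a wide spread in both groups (log2 fold change -0.32, SE 0.237, edgeR adjusted p = 0.237). Slc25a18, its paralog, was at 0.214 to 0.757 CPM in space and 0.198 to 0.569 CPM in control (0.48, SE 0.207, edgeR adjusted p = 0.0796). It had only 4 to 29 counts per library over both groups, and Atp6v1e1 overlaps it on the opposite strand. Slc25a44, which carries branched-chain amino acids, averaged 23.7 ± 1.37 CPM in space and 22.6 ± 1.03 CPM in control (0.07, edgeR adjusted p = 0.128), and it passed under upper-quartile scaling (0.13, edgeR adjusted p = 0.00396). Slc25a38, the glycine carrier of heme synthesis, was at 7.71 ± 0.891 CPM in space and 8.58 ± 0.976 CPM in control (-0.15, edgeR adjusted p = 0.0840).

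The citrate carrier Slc25a1, which feeds fatty acid synthesis, had 1.81, 4.13 and 15.5 CPM in space and 1.94, 4.03 and 7.66 CPM in control. Space replicates 1 and 4, at 15.5 and 13.5 CPM, were the high libraries, and the log2 fold change of 0.48 did not pass the test (SE 0.359, edgeR adjusted p = 0.268). Without space replicates 1 to 4 it was -0.29 (edgeR adjusted p = 0.407). The dicarboxylate carrier Slc25a10 was likewise highest there, at 5.50 to 10.1 CPM in space replicates 1 to 4, 2.82 to 5.24 CPM in space replicates 5 to 10 and 4.24 to 6.95 CPM in control (0.11 with them, edgeR adjusted p = 0.642, and -0.32 without, edgeR adjusted p = 0.0675). Schwann cell and nerve markers were highest in the same 4 libraries, and their part in these values was not tested. Slc25a2 was below 1 CPM throughout and did not pass (edgeR adjusted p = 0.249), and Slc25a21, the oxodicarboxylate carrier, was under the filter at 0 to 4 counts in space and 0 to 6 counts in control libraries.

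The uncoupling-protein-like carriers split. Slc25a27 (UCP4), best known from neurons, had 13.4, 20.2 and 21.5 CPM in space and 10.2, 11.3 and 13.9 CPM in control. All 10 space libraries were above the control mean, and the ranges met where space replicate 7, at 13.4 CPM, lay under control replicate 1, at 13.9 CPM. The log2 fold change was 0.76 (SE 0.0821, edgeR adjusted p = 8.73e-09) and 0.73 without space replicates 1 to 4, the libraries rich in nerve markers. Slc25a30 had 4.09, 4.56 and 5.09 CPM in space and 4.87, 5.45 and 6.62 CPM in control (-0.30, SE 0.0517, edgeR adjusted p = 0.000321). Slc25a14, at 0.836 to 1.64 CPM in space and 1.06 to 1.85 CPM in control, did not pass (-0.21, edgeR adjusted p = 0.198).

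Slc25a34, a carrier with no assigned substrate, fell furthest of all members. It had 10.7, 18.1 and 34.6 CPM in space and 26.2, 55.5 and 99.8 CPM in control. The spread was wide in both groups and space replicates 5 and 9, at 33.9 and 34.6 CPM, overlapped control replicate 8, at 26.2 CPM, although all 10 space libraries were below the control mean. The log2 fold change was -1.52 (SE 0.243, 2.86-fold lower, edgeR adjusted p = 2.40e-05), and -1.42 without space replicates 1 to 4. Its close relative Slc25a35, at 4.26 to 7.05 CPM in space and 4.37 to 8.31 CPM in control, did not pass (-0.12, edgeR adjusted p = 0.297). Slc25a35 overlaps Rangrf on the opposite strand.

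Slc25a46, an outer membrane member that takes part in mitochondrial dynamics, averaged 48.1 ± 2.88 CPM in space and 62.9 ± 4.07 CPM in control with no overlap (log2 fold change -0.39, SE 0.0402, edgeR adjusted p = 2.65e-08). Slc25a47 averaged 2.40 ± 0.436 CPM in space and 2.91 ± 0.418 CPM in control (-0.28, edgeR adjusted p = 0.0320). That call was lost under upper-quartile scaling (edgeR adjusted p = 0.0903), with library size alone (edgeR adjusted p = 0.176), with no count filter (edgeR adjusted p = 0.0634), and without any 1 of space replicates 5, 6 or 9 or control replicates 8, 9 or 10 (edgeR adjusted p = 0.0512 to 0.0624). Slc25a53 averaged 1.41 ± 0.264 CPM in space and 1.10 ± 0.316 CPM in control (0.38, edgeR adjusted p = 0.0433), and it did not pass without space replicates 1 to 4 (edgeR adjusted p = 0.101), with no count filter (edgeR adjusted p = 0.0712), or without any 1 of space replicates 1, 2, 3, 5, 9 or 10 or control replicates 2, 3, 5, 7, 8 or 10 (edgeR adjusted p = 0.0502 to 0.085). Slc25a45 was at 1.44 ± 0.431 CPM in space and 1.43 ± 0.235 CPM in control. Slc25a43 had 0 to 14 counts in space and 1 to 18 counts in control libraries, and Slc25a48 had 0 to 8 counts in space and 0 to 2 counts in control libraries. Slc25a54 had no count in any of the 20 libraries, which allows a level of up to 0.00479 CPM over all of them by counting error alone.

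Ratios between related carriers in the same library were compared next, since they do not depend on the scaling between libraries. These are ratios of CPM, not adjusted for length, tested by 2-sided permutation of the libraries (100000 resamples) with adjustment over 12 pairs. Of the 12, 4 were higher in space, 6 were lower and 2 did not pass. No share over other gene pairs was computed. Since 57.6% of all tested genes changed, nothing particular to these pairs is read from the count. The Slc25a4 to Slc25a5 ratio was 5.80 ± 0.251 in space and 5.72 ± 0.146 in control on the log2 scale, and the difference of 0.08 did not pass (SE 0.0917, permutation adjusted p = 0.428). Without space replicates 1 to 4 that difference was 0.25 and passed (exact permutation adjusted p = 0.00749). The Slc25a4 to Slc25a3 ratio was 1.73 ± 0.0797 in space and 1.49 ± 0.0604 in control, a difference of 0.25 with all 10 space libraries above the control mean (permutation adjusted p = 0.00016).

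The calcium-regulated carriers gave the largest shift. The Slc25a25 to Slc25a23 log2 ratio averaged 0.31 ± 0.707 in space and -1.26 ± 0.439 in control, and all 10 space libraries were above the control mean. The difference was 1.57 (SE 0.263, permutation adjusted p = 0.00016), and 1.44 without space replicates 1 to 4. The Slc25a23 to Slc25a24 ratio was 1.01 to 1.30 in space and 1.45 to 2.34 in control, without overlap. Its difference was -0.91 (SE 0.0950, permutation adjusted p = 0.00016). The Slc25a25 to Slc25a24 ratio differed by 0.66 (permutation adjusted p = 0.0174). Space replicates 2 and 3 were highest, at 2.58 and 2.57, with the other space libraries at 0.40 to 1.62. The difference did not pass with libraries blocked by sample number (block permutation adjusted p = 0.0891).

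In the iron carriers the mitoferrin 1 to mitoferrin 2 log2 ratio (Slc25a37 over Slc25a28) was -1.01 ± 0.309 in space and -0.39 ± 0.177 in control, lower in all 10 space libraries than the control mean (difference -0.61, permutation adjusted p = 0.00018). The Slc25a34 to Slc25a35 ratio differed by -1.40 (permutation adjusted p = 0.00104), and the Slc25a22 to Slc25a18 ratio by -0.80 (permutation adjusted p = 0.00483). Smaller falls were found for Slc25a33 over Slc25a36 at -0.39 (permutation adjusted p = 0.0158) and for Slc25a39 over Slc25a40 at -0.37 (permutation adjusted p = 0.00104). The Slc25a16 to Slc25a42 ratio was higher in space by 0.41 (permutation adjusted p = 0.00363). The Slc25a30 to Slc25a14 ratio differed by -0.09 and did not pass (SE 0.133, permutation adjusted p = 0.502).

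**Figure D3:**
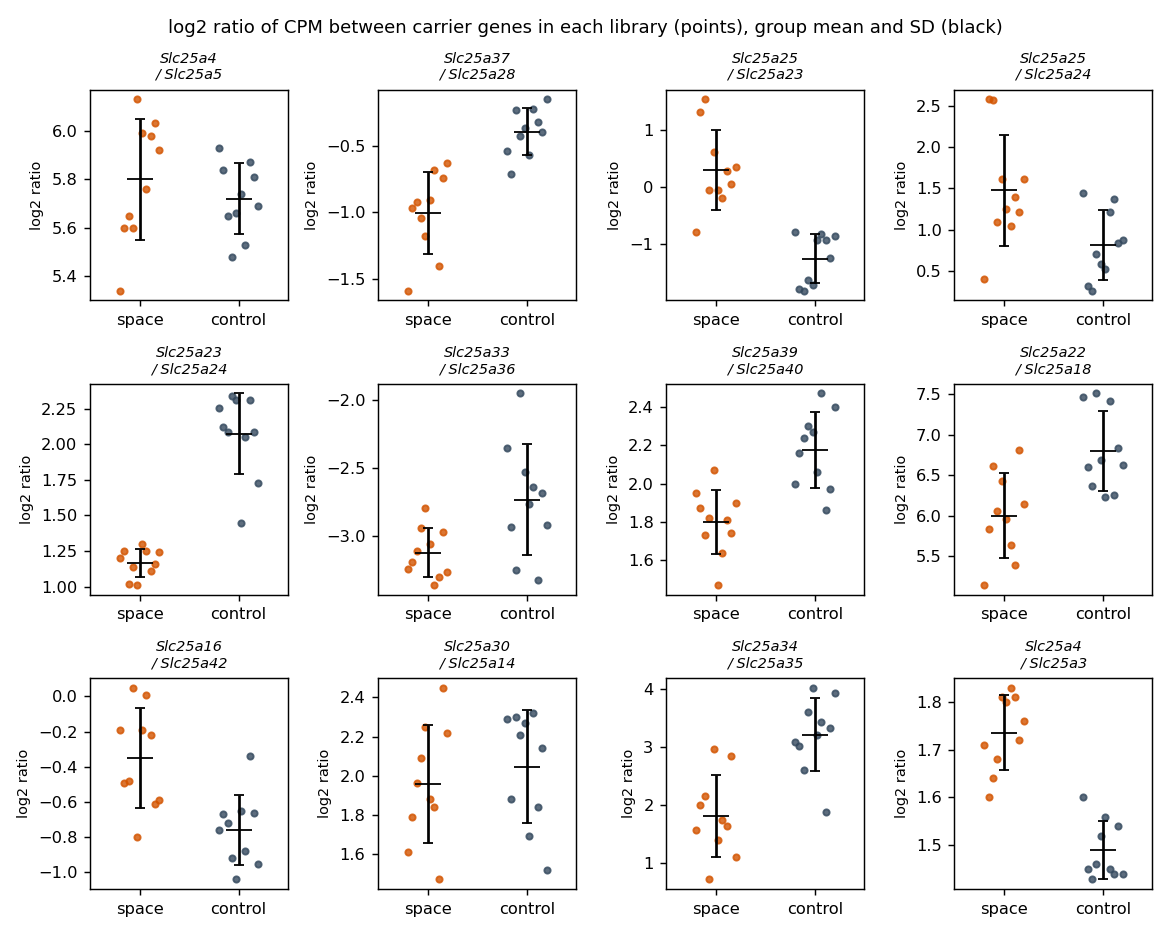
log2 ratio of CPM (y axis) of 12 pairs of carrier genes in each space (left) and control (right) library, with points for libraries and black bars for the group mean and SD. The Slc25a23 to Slc25a24 ratio separates the groups fully, and the Slc25a4 to Slc25a5 ratio does not separate them.

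Nuclear genes of respiratory complexes I to IV (61 genes, the OXPHOS list) fell as a group, so each carrier was also set against the median of that list in its own library. On the log2 scale the list median, relative to the control mean, was -0.55 ± 0.126 in space libraries (n = 10), with a range of -0.72 to -0.37 against -0.12 to 0.09 in control libraries. It was -0.72 to -0.64 in space replicates 1 to 4 and -0.60 to -0.37 in space replicates 5 to 10. Of 37 carriers, 23 were higher relative to this median in space, 3 were lower and 11 did not pass (2-sided permutation test, 100000 resamples, adjusted over 37). Most genes were higher by this measure, since the list itself fell: with the same test adjusted over all 16778 tested genes, 79.1% of them were higher and 5.19% lower, against 25 and 3 of the 37 carriers, 67.6% and 8.11%. The median difference was 0.34 for the carriers and 0.57 for all tested genes, and nothing particular to the family is read from the count of higher carriers. Without space replicates 1 to 4, 19 carriers were higher and 3 lower with adjustment over 37. Adjusted over all tested genes, 20 carriers (54.1%) were then higher and 3 (8.11%) lower, against 70.6% and 5.64% of all tested genes.

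Neither translocator passed this comparison. Relative to the chain, Slc25a4 differed by 0.04 (SE 0.0383, permutation adjusted p = 0.393) and Slc25a5 by -0.04 (SE 0.0673, permutation adjusted p = 0.582). The value of Slc25a4 was 0.12 and passed without space replicates 1 to 4 (exact permutation adjusted p = 0.00308). The 3 that fell further than the chain were Slc25a3 at -0.21, whose groups did not overlap (permutation adjusted p = 0.000211), Slc25a23 at -0.41 (permutation adjusted p = 0.00174) and Slc25a34 at -0.96 (permutation adjusted p = 0.00266). The others that did not pass were Slc25a1, Slc25a15, Slc25a17, Slc25a22, Slc25a26, Slc25a29, Slc25a33, Slc25a39 and Slc25a47, between -0.07 and 0.80. The iron carrier Slc25a28 stood highest at 1.31 (SE 0.0543, permutation adjusted p = 0.000211), next to Slc25a27 at 1.30 and Slc25a25 at 1.16. Slc25a51 fell by itself but was higher relative to the chain, by 0.38 with no overlap (permutation adjusted p = 0.000211), and so was Slc25a46, by 0.17 (permutation adjusted p = 0.00266).

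**Figure D4:**
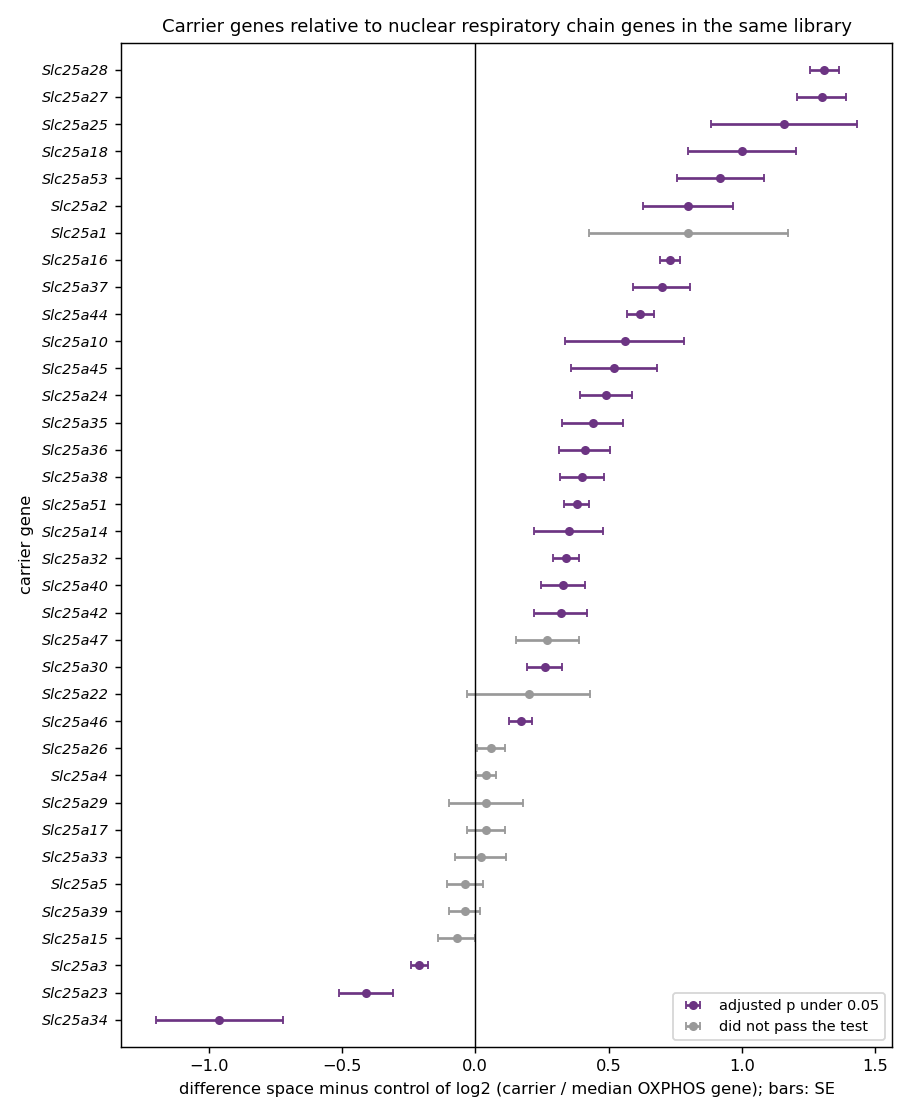
Difference (x axis, space minus control, log2) of 36 of the 37 tested carrier genes (rows) relative to the median of 61 nuclear respiratory chain genes in the same library, with bars for the SE. Of the 36 shown, 22 lie above 0 and passed, while Slc25a3, Slc25a23 and Slc25a34 lie below 0 and passed.

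Genes of related functions were counted next, to be read against the 28.9% of all tested genes that fell, the 28.7% that rose and their median log2 fold change of 0.02. Of 15 tested genes for proteins that bring carriers into the membrane, 12 fell, 3 did not pass (Tomm20, Timm9 and Timm10b) and none rose, with a median log2 fold change of -0.40, and without space replicates 1 to 4, 11 fell and 1 rose. They included Tomm5 of the outer membrane pore, with a log2 fold change of -1.03 (SE 0.0528, 2.05-fold lower, edgeR adjusted p = 3.59e-13). Timm22, the core of the inner membrane carrier translocase, was at 7.30 ± 0.829 CPM in space and 14.4 ± 0.898 CPM in control (edgeR adjusted p = 2.11e-12). Of the family's kin under other names, Ucp2, Mtch1 and Mtch2 fell. Ucp3, the muscle uncoupling protein, averaged 114 ± 60.5 CPM in space and 97.8 ± 34.7 CPM in control (edgeR adjusted p = 0.620), and Ucp1 was under the filter.

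Among 21 other mitochondrial transporters, 11 fell and 4 rose, with a median of -0.16. Both subunits of the pyruvate carrier fell, Mpc1 to 87.9 ± 9.07 CPM in space, against 134 ± 6.48 CPM in control, and Mpc2 to 88.3 ± 8.54 CPM in space, against 138 ± 5.02 CPM in control. The 4 that rose were the outer membrane channel Vdac1, the calcium uniporter regulator Micu3 and the sideroflexins Sfxn2 and Sfxn5. Vdac1 averaged 1404 ± 177 CPM in space and 1111 ± 36.3 CPM in control (log2 fold change 0.34, edgeR adjusted p = 4.61e-05), while Vdac2 and Vdac3 fell.

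Of 18 ATP synthase genes, which use what Slc25a3 and Slc25a4 carry, 16 fell, with a median of -0.63, and the ATP synthase inhibitor Atpif1 rose (0.29, edgeR adjusted p = 0.0019). Of the 61 genes of complexes I to IV, 60 fell. In the phosphocreatine shuttle 3 of 6 fell and 2 rose, and without space replicates 1 to 4, 3 fell and 1 rose. Ckmt2, the mitochondrial creatine kinase that takes ATP from the translocator, fell to 352 ± 67.4 CPM in space, against 1319 ± 87.0 CPM in control (-1.91, edgeR adjusted p = 2.92e-14). Ckm, the cytosolic muscle form, was at 9072 ± 801 CPM in space and 4100.1 ± 257 CPM in control (2.21-fold higher, edgeR adjusted p = 8.27e-14). Gatm, the other that rose, had 5.01, 6.62 and 35.0 CPM in space and 3.36, 4.40 and 7.18 CPM in control (1.53, edgeR adjusted p = 0.00264). The summed level of fast fibre markers was higher in every space library than in any control library, and its part in these values was not tested.

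Partners of the iron and cofactor carriers moved in both directions. In heme and iron-sulfur synthesis, which use the iron that the mitoferrins carry, 10 of 16 fell and 1 rose (9 and 2 without space replicates 1 to 4, and 2 rose with library size alone). Alas1, the rate-limiting enzyme of heme synthesis, fell to 35.4 ± 3.29 CPM in space, against 88.0 ± 9.00 CPM in control (-1.31, edgeR adjusted p = 1.45e-14). Fech, which inserts the iron, rose slightly (0.12, edgeR adjusted p = 0.00956). In glutathione metabolism 3 of 8 rose and 1 fell: the synthesis genes Gclm (0.80, edgeR adjusted p = 1.18e-06) and Gclc (0.56, edgeR adjusted p = 3.67e-05) and the glutaredoxin Glrx2 rose and Gsr fell, while the carriers Slc25a39 and Slc25a40 fell.

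In coenzyme A synthesis 4 of 7 fell and 2 rose (3 and 1 without space replicates 1 to 4). With library size alone 2 fell, and 1 rose with no count filter or with libraries blocked by sample number. Pank1, whose enzyme starts the pathway, had the smallest p of the list, at 40.6 ± 4.99 CPM in space and 85.8 ± 18.5 CPM in control (-1.08, edgeR adjusted p = 5.25e-08), and Ppcs fell a little further (-1.11, edgeR adjusted p = 2.60e-07). The 2 that rose were Pank2 (0.23, edgeR adjusted p = 0.000144) and Ppcdc (0.17, edgeR adjusted p = 0.0213). In the one-carbon and methionine cycle 5 of 12 rose and 3 fell, with a median of 0.01, near that of all tested genes. Ahcy, which removes the product of methyl transfer, was at 29.9 ± 3.02 CPM in space and 13.7 ± 1.07 CPM in control (1.13, edgeR adjusted p = 5.21e-14), and the mitochondrial folate enzyme Mthfd2 fell to 1.17 ± 0.298 CPM in space, against 3.89 ± 0.864 CPM in control. Shmt2 (-0.26, edgeR adjusted p = 8.31e-06) and Mat2b (-0.41, edgeR adjusted p = 8.70e-07) also fell. In NAD metabolism 5 of 9 fell and none rose (3 and 1 without space replicates 1 to 4, and 3 fell without space replicate 1, space replicate 3 or control replicate 5, and 1 rose without space replicate 6). Under upper-quartile scaling 3 fell and 2 rose, with library size alone 2 rose, and with no count filter 3 fell. Among those that fell were Nampt (-0.44, edgeR adjusted p = 1.43e-10) and Sirt3 (-0.80, edgeR adjusted p = 3.93e-09). Of 10 genes of mitochondrial DNA upkeep and nucleotides, 3 fell and none rose, with Tfam, which packages that DNA, at -0.44 (edgeR adjusted p = 1.40e-07). In this list 4 rose under upper-quartile scaling or library size alone. The number that rose was 1 without space replicates 1 to 4 and with libraries blocked by sample number. It was also 1 without space replicate 4, space replicate 10 or control replicate 1.

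For the carboxylate and amino acid carriers, 17 of 19 partner enzymes of citrate and dicarboxylate metabolism fell and 1 rose, with a median of -0.35. Mdh1, the cytosolic malate dehydrogenase, fell to 245 ± 26.4 CPM in space, against 665 ± 39.9 CPM in control (-1.44, edgeR adjusted p = 1.79e-15). The one that rose was Oat, which breaks down ornithine, at 131 ± 17.4 CPM in space and 86.2 ± 6.06 CPM in control (0.61, edgeR adjusted p = 1.96e-08), while the ornithine carrier Slc25a15 fell. In branched-chain amino acid catabolism 2 of 8 rose, Ppm1k and Bckdhb, and 2 fell, Dld and Bcat2. Without space replicates 1 to 4, 3 rose and 1 fell, and 1 fell without any 1 of space replicates 2, 3, 4 or 8 or control replicate 9. The number that fell was also 1 with DESeq2 size factors, the DESeq2 test, upper-quartile scaling, library size alone or a filter at 1 CPM. Their carrier Slc25a44 did not pass.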

How the data were processed

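The deposited file is 1 table of whole-number read counts for Ensembl genes, not normalized. Per the labels' protocols, 90 ng of total RNA went into each ribosomal-RNA-depleted library, sequenced in paired-end mode. Per the submitters' processing notes, MultiQC 1.15, Subread, featureCounts 1.5.1, edgeR and the build GRCm39 were used. The sources used here say nothing of strand or of reads matching several genes. Besides the overlaps given with the values, further tested members overlap a gene on the opposite strand, such as Slc25a23 (Crb3), Slc25a26 (Lrig1) and Slc25a53 (Zcchc18). Columns were assigned to samples by the library code in each sample's description, and groups came from the labels.

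Names, gene classes and exon lengths came from GENCODE M21 on GRCm38, which covered 52000 of 56941 rows and 97.6% of the counts. In R 4.3.3, edgeR 4.0.16 was used with filterByExpr (minimum count 10, minimum total 15), TMM scaling and robust quasi-likelihood fits on all 20 libraries, with Benjamini-Hochberg adjustment over 16778 genes and a threshold of 0.05. Each SE was computed from the log2 CPM of the libraries in the 2 groups. log2 CPM used a prior count of 2. The common biological coefficient of variation was 0.149. Library values were compared by 2-sided permutation in Python, exactly where libraries were left out. RPKM was CPM per kilobase of merged exons. A count of 0 is given an upper limit of 3 counts, which covers counting error only.

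Members, lists, pairs and motifs were chosen with earlier results of these data known. Every member is accounted for, except that the values of 1 are not reported here, although it is part of the counts. Full ranges are given for the 12 called members with the largest fold changes, the 4 highest by RPKM and both genes of each pair. Lists name up to 4 genes by smallest p, those called against the list's majority and some others.

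The test was run on simulated data of 16686 genes in 10 against 10 libraries: it recovered 24% of 1.25-fold, 82% of 1.5-fold and 100% of 2-fold and 3-fold changes, and 5 of 155 calls were false. In the simulation 50 genes changed at each fold, and all genes had the same dispersion. In the data 57.6% of tested genes were called, so these rates do not carry over to the data. Alternatives were DESeq2 1.42.0 size factors and test, upper-quartile factors, library size alone, limma-voom (limma 3.58.1) with quality weights, other filters and thresholds, a sample-number block, other prior counts, the ATP synthase list, adjustment of the comparison with the respiratory chain over all tested genes (added after seeing the data), each library left out, and space replicates 1 to 4 left out.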

Additional observations from a re-analysis of the deposited data

Results flagged for a closer look

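Gaps between libraries were measured on the log2 scale. Of 74 member and group combinations looked at, 2 held a library whose gap to its nearest neighbour exceeded Dixon's 95% critical value, and chance alone flags about 1 in 20 such groups. Both concern Slc25a28. In the space group, replicate 8 was high at 36.6 CPM, with the others at 28.5 to 32.1 CPM, and the gap was 0.525 of the log2 range. In the control group, replicate 3 was low at 15.5 CPM, with the others at 17.5 to 19.9 CPM, and the gap was 0.487 of the log2 range. Each of these libraries lies on the side away from the other group, and without either one the groups still do not overlap.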

How the results depend on the processing

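No called result changed direction under any alternative run. The number of members that rose was 5, but 8 under upper-quartile factors and 8 with library size alone, 2 with a fold threshold of 1.2 and 3 at an adjusted p under 0.01, and 3 to 6 with each library left out (3 without space replicate 2 or without space replicate 3). The number that fell was 18, and 17 to 19 with each library left out, 12 with the fold threshold of 1.2 and 16 at an adjusted p under 0.01. Upper-quartile factors and library size alone gained Slc25a18, Slc25a37 and Slc25a44 and lost Slc25a40 and Slc25a47, and with library size alone also Slc25a51. With each library left out, 4 pair ratios were higher and 6 lower, and 22 to 25 carriers were higher and 3 lower relative to the respiratory chain. The sample numbers do not pair the libraries: deviations of same-numbered libraries correlated between -0.132 and 0.0982, and 0 of 10 correlated best with their own number. With the replicate block, 5 members rose and 18 fell, 3 pair ratios were higher and 6 lower, and 23 and 3 carriers differed from the respiratory chain. The pair ratio lost was Slc25a25 over Slc25a24. The rise of Slc25a25 did not pass with the block (edgeR adjusted p = 0.143). The call of Slc25a47 did not pass with the block either (edgeR adjusted p = 0.062). Gained with the block were Slc25a18 (0.52, edgeR adjusted p = 0.0253) and Slc25a42 (-0.23, edgeR adjusted p = 0.0499). With the fold threshold of 1.2, the partner genes of citrate and dicarboxylate metabolism that fell numbered 10, against 17, and the genes of complexes I to IV 48, against 60. With the adjustment over all tested genes, chosen after seeing the data, 25 carriers were higher and 3 lower relative to the chain, gaining Slc25a1 and Slc25a47. With the ATP synthase list as the reference, 27 carriers were higher and 3 lower. The causes of these changes were not tested. Depth limits the 6 members under the filter. Of the smallest fold changes in the simulation, which held fewer changed genes than the data, 24% were recovered.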
